A study of Mus musculus with 6 samples.

Results

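Cd80, Cd86, Cd274, Pdcd1lg2, Icos, Cd83, Vsir and Cd200r1 encode surface proteins through which immune cells stimulate or restrain each other at contact. They were chosen by name, as B7 ligands that T cells can carry together with Icos, Cd83, Vsir and the CD200 receptor, and all 8 names matched a row among the 14777 genes of the deposited count table. All 8 also passed the filter on low counts, which left 14632 genes. The RNA came from cultured regulatory T cells (Treg) of the C57BL/6 strain, which had been naive CD4 T cells before the culture and so were not Treg formed in the animal. The dE2 group (3 libraries) carried a Foxp3 exon 2 deletion, and the FL group (3 libraries) had FOXP3 FL, the full-length form. Cells of both groups had received coated anti-CD3 and anti-CD28 at 1 µg/ml each, with IL-2 at 20 ng/ml and TGFβ at 5 ng/ml (both recombinant human proteins), over 3 days. Per the labels, over 90% of the cells were FOXP3+. The labels name no separate animals or cultures behind the replicates, and the spread that the tests work with is therefore that between 6 libraries and may be technical.

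A T cell needs a signal beside its antigen receptor to be fully activated, and the B7 ligands CD80 and CD86 give it by binding CD28. The same ligands bind CTLA-4 more tightly, and Treg use CTLA-4 to take them off the surface of antigen presenting cells. PD-L1 (Cd274) and PD-L2 (Pdcd1lg2) bind PD-1 and restrain the cell that carries it, and VISTA (Vsir) is a B7-related inhibitory molecule of T cells and myeloid cells. ICOS, a relative of CD28, is induced on activated T cells and marks effector Treg. CD83 appears on activated dendritic cells, B cells and Treg, and the CD200 receptor passes an inhibitory signal when it meets CD200.

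Libraries held 14122086 to 15658111 counts in dE2 and 13307155 to 16140432 in FL. Foxp3 stood at 436.5, 403 and 335 CPM (counts scaled to library size and by the TMM method) in dE2 replicates 1 to 3, against 447, 397 and 337 CPM in FL replicates 1 to 3. This count spans all exons and does not check the loss of exon 2. All 7 CD4 T cell markers were measured, and their summed level was 6560 to 7400 CPM in dE2 and 4790 to 5410 CPM in FL, without overlap. Of these, the coreceptor gene Cd4 (log2 fold change 0.49 ± 0.14 SE, adjusted p = 0.0438 in edgeR's quasi-likelihood test) and Cd5, which dampens antigen receptor signals (0.64 ± 0.14, adjusted p = 0.00857), passed the test. The Cd4 call was lost without any 1 library other than dE2 replicate 1 (adjusted p between 0.065 and 0.25) with limma-voom (0.0604) and without the composition factor (0.108), and the Cd5 call without dE2 replicate 2 (0.0839) or FL replicate 1 (0.0518). The 5 Treg markers summed to 6130 to 7940 CPM in dE2 and 6350 to 7090 CPM in FL, with overlap and most of it Il2ra. Of these 0 passed, and the list median log2 fold change was -0.0069. In bulk RNA, more cells of a type and more RNA per cell cannot be told apart. The part of the CD4 T cell marker shift in the results that follow was not tested.

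The comparison of dE2 with FL asks which transcripts stand higher or lower when FOXP3 lacks the part encoded by exon 2. Cd83, Cd200r1, Cd274 and Vsir were higher in dE2, by 2.19-fold, 1.94-fold, 1.58-fold and 1.45-fold. Icos, Pdcd1lg2, Cd80 and Cd86 did not pass the test, with fold changes of 1.26, 1.24, 1.30 and 1.10. No member was lower, against 2.43% of the tested genes. Thus 4 of 8 members rose (50%), against 3.75% of the 14632 tested genes that were called higher at an adjusted p under 0.05. The groups did not overlap, with dE2 higher, for 5 of the 8 members (62.5%), against 13.6% of the tested genes. The median log2 fold change was 0.46 over the members and -0.0043 over all tested genes. The 8 names were chosen with results of these libraries known, so these shares describe them and are not independent evidence.

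**Figure D1:**
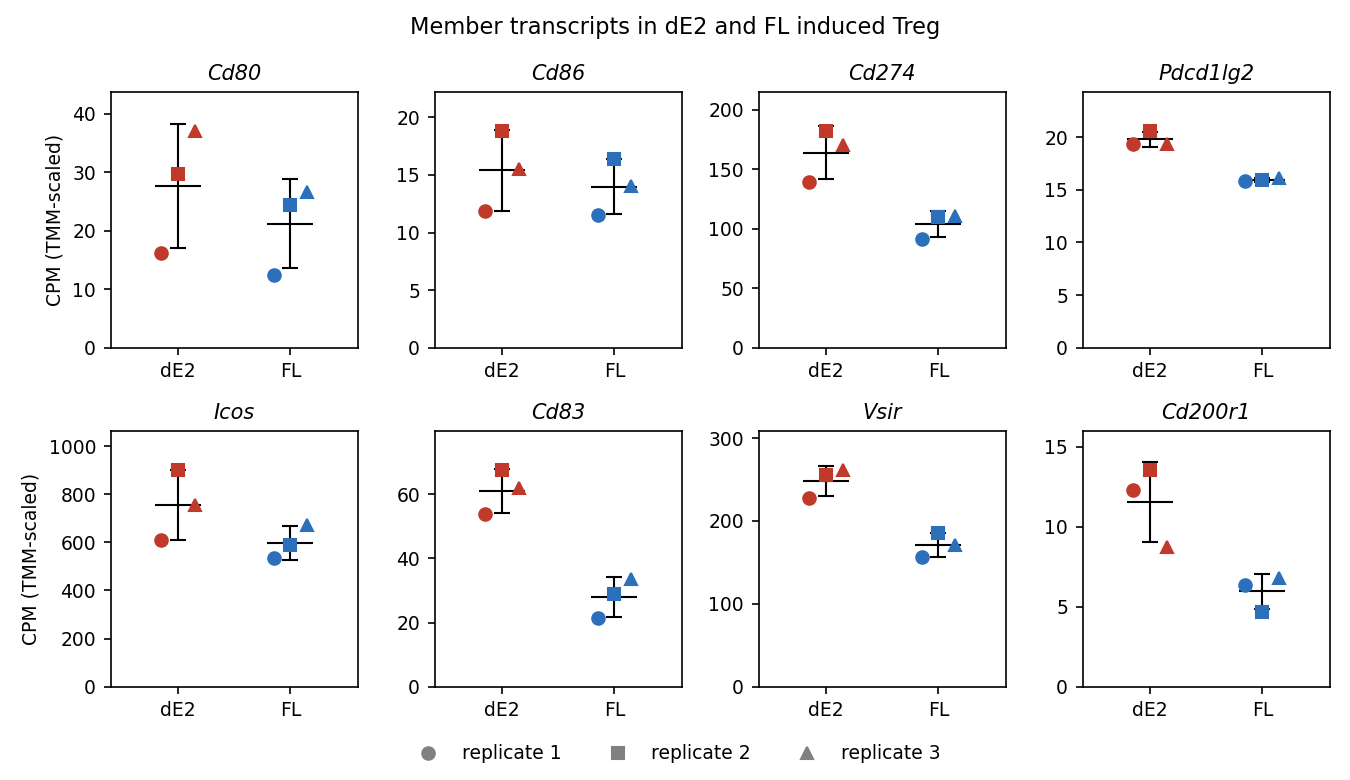
TMM-scaled CPM (vertical axes, from 0) of the 8 genes in dE2 (left, red) and FL (right, blue), with a symbol for each replicate number and a black bar and whiskers for the mean and SD of 3 libraries. All dE2 values of Cd274, Pdcd1lg2, Cd83, Vsir and Cd200r1 lie above all FL values, and those of Cd80, Cd86 and Icos overlap with FL.

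Among the ligands, Cd274, which encodes PD-L1 (ENSMUSG00000016496, mm10 chromosome 19, 29367455 to 29388095, plus strand, 3622 counted exon bases), was measured at 139, 182 and 170 CPM in dE2, against 91.4, 110 and 110 CPM in FL. All dE2 libraries lay above all FL libraries. Its log2 fold change was 0.66 ± 0.13 (SE; edgeR quasi-likelihood test, adjusted p = 0.00429), with a 95% interval of 0.39 to 0.92. Without dE2 replicate 2 the call ended, at a log2 fold change of 0.57 and an adjusted p of 0.0536. An antisense gene (AC119228.1) shares 511 exon bases with Cd274 in GENCODE M21, and since the reads carried no strand information the counts cannot be told apart there.

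Pdcd1lg2, the gene of the other PD-1 ligand (ENSMUSG00000016498, chromosome 19, 29410919 to 29471157, plus strand, 1645 counted bases), starts 22823 bases beyond the end of Cd274 in the GENCODE annotation. It stood at 19.4, 20.6 and 19.4 CPM in dE2, against 15.8, 15.9 and 16.1 CPM in FL. These groups did not overlap either, and the spread within each was small, at an SD of 0.697 CPM in dE2 and 0.172 CPM in FL. Behind these values lay 266 to 290 counts per library in dE2 and 228 to 268 in FL. Sampling noise of such counts is larger than these SDs, so the small spread is no measure of how tightly the gene is expressed. The log2 fold change of 0.31 ± 0.13 (95% interval 0.03 to 0.59) did not pass after adjustment over all genes (edgeR adjusted p = 0.17), nor with the replicate number as a block (adjusted p = 0.0736). The ratio of Cd274 to Pdcd1lg2, on CPM per kilobase of counted exon, was 3.26, 4.02 and 3.99 in dE2 and 2.63, 3.12 and 3.11 in FL. The mean log2 ratio differed by 0.34, with no overlap, and a two-sided exact permutation test gave p = 0.1 (0.2 adjusted over 2 ratios), the smallest p that 3 against 3 libraries allow.

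The promoters of 4 members have an entry in RefSeq's table for GRCm38.p6 (mm10), and they are shown for the neighbours Cd274 and Pdcd1lg2, for Vsir, which also rose, and for Cd80. Each run is the 250 bases before the transcript start, 5′ to 3′ on the plus strand, and capitals mark a motif match.
Cd274 chr19:29367188-29367437: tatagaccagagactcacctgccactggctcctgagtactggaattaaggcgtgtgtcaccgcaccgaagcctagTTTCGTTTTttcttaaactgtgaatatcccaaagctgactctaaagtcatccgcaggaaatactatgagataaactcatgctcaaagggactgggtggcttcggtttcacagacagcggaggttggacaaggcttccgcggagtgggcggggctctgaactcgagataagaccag
Pdcd1lg2 chr19:29410669-29410918: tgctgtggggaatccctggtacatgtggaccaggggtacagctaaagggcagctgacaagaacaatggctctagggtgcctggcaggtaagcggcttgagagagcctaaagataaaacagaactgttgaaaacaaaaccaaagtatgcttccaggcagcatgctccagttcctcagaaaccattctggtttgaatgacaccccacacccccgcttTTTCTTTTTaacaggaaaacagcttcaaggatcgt
Vsir chr10:60346601-60346850: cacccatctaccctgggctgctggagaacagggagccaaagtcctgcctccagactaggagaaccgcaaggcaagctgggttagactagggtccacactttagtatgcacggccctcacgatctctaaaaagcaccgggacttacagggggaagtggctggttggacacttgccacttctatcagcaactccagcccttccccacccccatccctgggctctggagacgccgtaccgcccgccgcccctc
Cd80 chr16:38458683-38458932: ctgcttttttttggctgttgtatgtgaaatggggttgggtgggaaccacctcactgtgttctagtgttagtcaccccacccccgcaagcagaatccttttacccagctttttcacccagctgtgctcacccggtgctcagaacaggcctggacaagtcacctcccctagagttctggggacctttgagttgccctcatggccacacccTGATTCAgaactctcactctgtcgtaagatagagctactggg
The search covered both strands for a forkhead motif (TGTTTAC), a STAT site (TTCNNNGAA), an AP-1 site (TGANTCA), an interferon regulatory factor motif (TTTCNNTTT), an E-box (CACGTG), an NF-kB motif (GGANTTTCC), a cAMP response element (TGACGTCA) and a RUNX motif (TGTGGT). Of 32851 mouse promoters of the same length, 3.17% held the forkhead motif, 7.02% the STAT site, 6.75% the AP-1 site, 9.37% the interferon motif, 6.02% the E-box, 1.07% the NF-kB motif, 1.55% the cAMP response element and 14.0% the RUNX motif. The Cd274 window held 1 match of the interferon motif, TTTCGTTTT, from 175 to 167 bases before the start, and the Pdcd1lg2 window 1, TTTCTTTTT, from 35 to 27 bases before it. The Cd80 window held 1 AP-1 match, TGATTCA, from 42 to 36 bases before the start, and GENCODE M21 also annotates an earlier start for Cd80. The Vsir window held none of the 8 motifs. These are matches of letters in short windows, not measured binding sites.

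Cd80 and Cd86 encode the pair of ligands that CD28 and CTLA-4 share. Cd80 (ENSMUSG00000075122, chromosome 16, 38458933 to 38486933, plus strand, 1701 counted bases) had 16.2, 29.7 and 37.0 CPM in dE2, against 12.5, 24.3 and 26.7 CPM in FL. Replicate 1 was lowest in each group, and the groups overlapped widely. The log2 fold change of 0.38 ± 0.45 (95% interval -0.80 to 1.57, edgeR adjusted p = 0.69) did not pass, and it spanned 0.10 without dE2 replicate 3 and 0.11 without FL replicate 1 up to 0.66 without dE2 replicate 1. Same-numbered libraries differed by 0.37, 0.28 and 0.47 on the log2 scale in replicates 1, 2 and 3, with dE2 higher in 3 of 3. With the replicate number as a block Cd80 passed, at 0.38 ± 0.12 (adjusted p = 0.0133). That SE rests mostly on a spread pooled over genes, not on the 3 pairs of Cd80 alone.

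Cd86 (ENSMUSG00000022901, chromosome 16, 36603869 to 36666081, minus strand, 3661 counted bases) had 11.8, 18.8 and 15.5 CPM in dE2, against 11.6, 16.4 and 14.0 CPM in FL. The groups overlapped almost fully, and the log2 fold change of 0.13 ± 0.18 (edgeR adjusted p = 0.706) had a 95% interval of -0.24 to 0.50. It did not pass with the block either (adjusted p = 0.553). Counts of 172 to 275 per library lay behind Cd86 and 186 to 537 behind Cd80. The length-scaled ratio of Cd80 to Cd86 was 2.94, 3.39 and 5.14 in dE2 and 2.33, 3.2 and 4.10 in FL, a mean log2 difference of 0.25 with overlapping groups (two-sided exact permutation test without the pairing, p = 0.5). Within same-numbered libraries this ratio was higher in dE2 in 3 of 3 pairs, as was that of Cd274 to Pdcd1lg2. A two-sided exact permutation test over the pairs gave p = 0.25 for each ratio, the smallest that 3 pairs allow.

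Both ligand genes, and Cd83, are also expressed by B cells and dendritic cells, so markers of these were read beside them. The 7 measured of 10 B cell markers summed to 37.5, 16.8 and 20.9 CPM in dE2 replicates 1 to 3, against 36.6, 16.9 and 30.2 CPM in FL replicates 1 to 3. None of them passed the test. Their sum was highest in replicate 1 of each group, where Cd80, Cd86 and Cd83 were lowest. Replicate 1 was lowest in both groups for 6 of the 8 members and for 17.3% of the tested genes. This order is therefore not particular to Cd80, Cd86 and Cd83. The 3 measured of 10 dendritic cell markers (Batf3, Ccr9 and Zbtb46) summed to 12.5 to 17.1 CPM in dE2 and 8.87 to 11.9 CPM in FL. These sums did not overlap, with no single marker passing. Most of the difference was Batf3, at a mean of 6.62 CPM in dE2 and 3.04 CPM in FL. Zbtb46 had means of 5.48 CPM in dE2 and 5.06 CPM in FL, with overlap. Ccr9 went the other way, at 1.96 CPM in dE2 and 2.11 CPM in FL. The other names of both lists, the dendritic cell genes Itgax and Flt3 among them, matched no row among the 14777 genes. Of 9 monocyte and macrophage markers 3 were measured (Cd68, Cx3cr1 and Lyz2), at a sum of 56.6 to 97.1 CPM in dE2 and 28.2 to 53.6 CPM in FL. These sums did not overlap either, and no single marker passed. Most of each mean was Cx3cr1, at 61.3 CPM in dE2 and 35.3 CPM in FL. Lyz2 was 14.7 CPM in dE2 replicate 1 and at most 2.32 CPM in the other libraries. All 6 MHC class II genes were measured, at 522 to 565 CPM in dE2 and 353 to 481 CPM in FL, without overlap and most of it Cd74. Among them H2-DMb2, a subunit that guides peptide loading, rose by 0.63 ± 0.14 (edgeR adjusted p = 0.011), and lost its call without dE2 replicate 2 (0.0802) or FL replicate 1 (0.0793). The other 5 did not pass, and the list median was 0.0093. Cd74, the invariant chain gene, stood at 0.46 ± 0.14 (edgeR adjusted p = 0.0616), Ciita, the gene of the transactivator of this class, at -0.61 ± 0.28 (0.199), and H2-Aa, H2-Ab1 and H2-Eb1 at 0.05, -0.03 and -0.06. Cd8a and Cd8b1 summed to 138, 58.4 and 50.8 CPM in dE2 and 53.0, 29.0 and 48.3 CPM in FL. The 3 measured of 5 NK cell markers summed to 21.5 to 30.6 CPM in dE2 and 15.9 to 26.3 CPM in FL. The part of these cell types in the member results was not tested.

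Vsir, which encodes VISTA (ENSMUSG00000020101, chromosome 10, 60346851 to 60372684, plus strand, 5014 counted bases), reached 228, 255 and 262 CPM in dE2, against 157, 186 and 171 CPM in FL. All dE2 libraries were above all FL libraries. The log2 fold change was 0.54 ± 0.12 (95% interval 0.29 to 0.79, edgeR adjusted p = 0.0115). Without dE2 replicate 2 the call ended (0.51, adjusted p = 0.0732) as it did without FL replicate 1 (0.48, adjusted p = 0.086). Vsir lies within Cdh23 on the opposite strand, but no exon bases are shared.

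Icos, the costimulatory receptor gene (ENSMUSG00000026009, chromosome 1, 60977927 to 61000320, plus strand, 3430 counted bases), had 608, 901 and 755 CPM in dE2, against 533, 589 and 670 CPM in FL. The lowest dE2 library lay below the highest FL library, so the groups overlapped. The log2 fold change of 0.34 ± 0.15 (95% interval 0.03 to 0.64) did not pass (edgeR adjusted p = 0.178). Icos passed with the replicate number as a block (0.32 ± 0.10, adjusted p = 0.0113) and without dE2 replicate 1 (0.47, adjusted p = 0.0439), and stood at 0.19 without dE2 replicate 2 (adjusted p = 0.64).

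Cd83 showed the largest fold change of the 8 genes. This activation marker (ENSMUSG00000015396, chromosome 13, 43784775 to 43803132, plus strand, 2572 counted bases) had 53.9, 67.6 and 62.0 CPM in dE2, against 21.3, 28.9 and 33.6 CPM in FL. The lowest dE2 library was well above the highest FL library. The log2 fold change was 1.13 ± 0.15 (95% interval 0.82 to 1.44, edgeR adjusted p = 0.000185), and Cd83 was the 34th gene of 14632 in order of p. It kept its call in each of 6 fits with 1 library left out, with adjusted p up to 0.0107.

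Cd200r1, the inhibitory receptor for CD200 (ENSMUSG00000022667, chromosome 16, 44765736 to 44794978, plus strand, 2034 counted bases), was expressed at a low level, with 12.3, 13.6 and 8.76 CPM in dE2, against 6.39, 4.70 and 6.79 CPM in FL. These rest on 127 to 184 counts per library in dE2 and 79 to 96 in FL. The groups did not overlap, and dE2 replicate 3 was the lowest of its group. The log2 fold change was 0.96 ± 0.20 (95% interval 0.53 to 1.38, edgeR adjusted p = 0.00825), and it fell short without dE2 replicate 2 (0.82, adjusted p = 0.0948). The share of reads assigned to genes in the mapping statistics was 75.5% in dE2 replicates 1 and 2, where Cd200r1 was highest, against 69.3% in dE2 replicate 3 and 69.2% to 71.5% in FL. The part of this share in the Cd200r1 result was not tested. The related gene Cd200r4 had 5.08, 4.42 and 2.69 CPM in dE2 and 2.35, 2.498 and 3.18 CPM in FL (log2 fold change 0.60 ± 0.26, adjusted p = 0.175). Genes of this family are close copies, so the split of reads between them is uncertain.

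On the length-scaled level (CPM per kilobase of counted exon), Icos stood above the rest at 220 ± 42.7 in dE2 and 174 ± 20.1 in FL (SD, n = 3 each). In dE2 the order went on with Vsir (49.5), Cd274 (45.3), Cd83 (23.8), Cd80 (16.2), Pdcd1lg2 (12.03), Cd200r1 (5.67) and Cd86 (4.21). Among dE2 neighbours, Vsir and Cd274, Cd83 and Cd80, Cd80 and Pdcd1lg2, and Cd200r1 and Cd86 overlapped in their 3 libraries. In FL the order after Icos was Vsir (34.2), Cd274 (28.7), Cd80 (12.4), Cd83 (10.9), Pdcd1lg2 (9.70), Cd86 (3.82) and Cd200r1 (2.93). Among FL neighbours, Cd80 and Cd83, Cd83 and Pdcd1lg2, and Cd86 and Cd200r1 overlapped. Cd83 thus stood above Cd80 in dE2 and below it in FL, and Cd200r1 above Cd86 in dE2 and below it in FL, but within each group both of these pairs overlapped. Over all genes of the table Icos lay at the 97.9th percentile of length-scaled level and Cd86 at the 45.8th. The counted lengths of Cd80 (1701 bases), Cd200r1 (2034) and Pdcd1lg2 (1645) are shorter than their exons in GENCODE M21 (3703, 3348 and 1961). Their close ranks, and the size of the ratios that include Cd80 or Pdcd1lg2, thus depend on the gene model. The differences of these ratios between groups do not depend on the length.

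**Figure D2:**
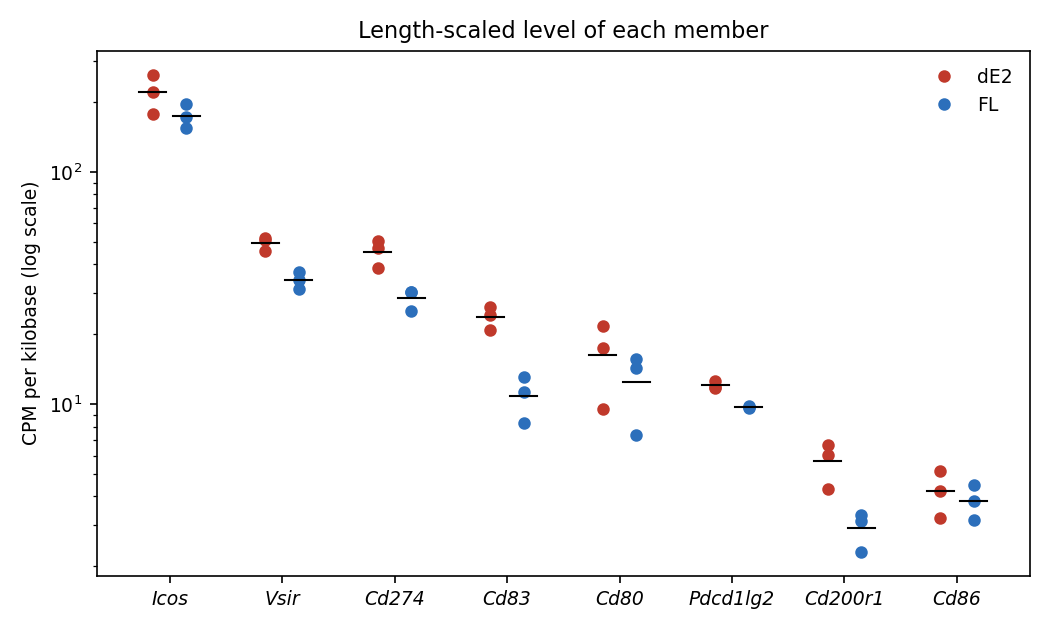
CPM per kilobase of counted exon (vertical, log scale) of the 8 genes, with dE2 in red left of FL in blue, each point a library and each black line a mean of 3. Icos is highest at 220 in dE2 and 174 in FL, and Cd86 and Cd200r1 are lowest.

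In the authors' deposited table the log2 fold changes of dE2 over FL were 1.13 for Cd83, 0.96 for Cd200r1, 0.66 for Cd274 and 0.54 for Vsir. Cd83, Cd200r1 and Cd274 met there, in the authors' deposited table, their rule for higher genes (fold over 1.5 and adjusted p under 0.05). Vsir missed it in the authors' deposited table by its fold of 1.45, with an adjusted p of 0.00125.

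Of the 8 members, 6 had dE2 above FL with an interval of the log2 fold change wholly above 0 without the block, and 7 with it. These intervals are not adjusted over genes, and the share of all tested genes that meets this looser criterion was not computed. The 6 include Pdcd1lg2 and Icos, which did not pass (edgeR adjusted p = 0.17 and 0.178). In order of p over the 14632 tested genes, of either direction, these stood at places 2681 and 2774. Many genes thus meet the looser criterion, and the counts of 6 and 7 only describe the members. The 7 include Pdcd1lg2, which did not pass with the block (0.0736). The block takes the replicate number as a shared source of variation, an inference from the libraries and not from the labels, and with it 6 members were called, Cd80 and Icos joining the 4. Across all tested genes the block raised the share called higher to 11.5%. The SEs of the block fit rest mostly on a spread pooled over genes, and those of Cd274 and Vsir were both 0.095. All block results given here share this limit, and they do not measure the spread of each gene between its own pairs.

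**Figure D3:**
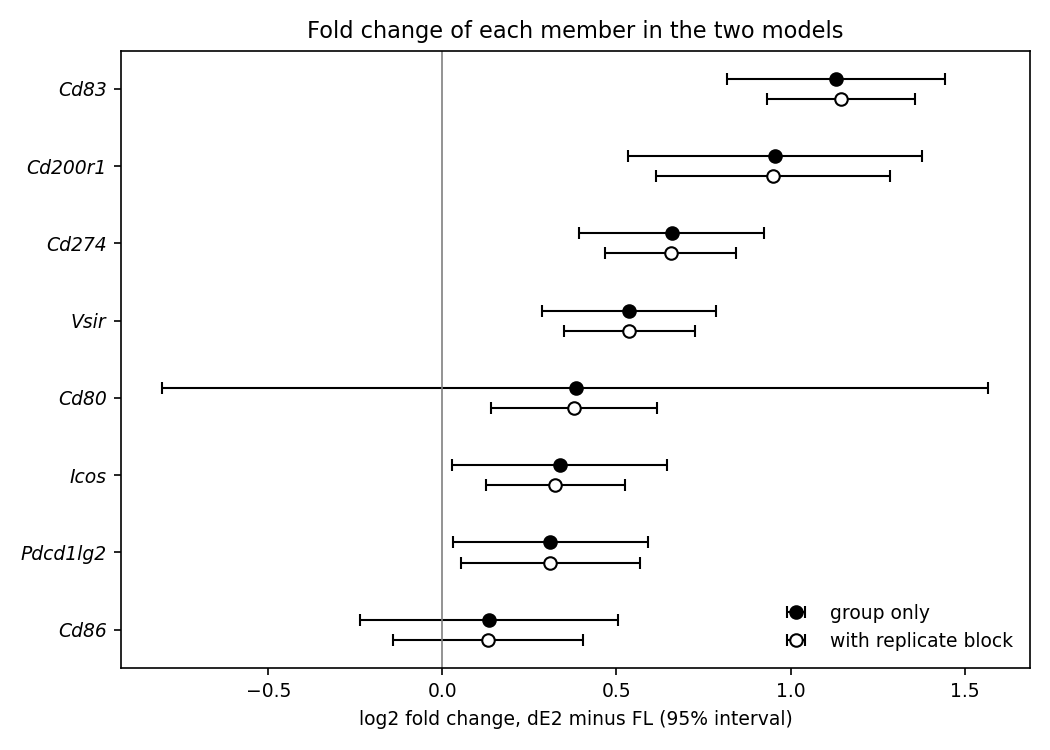
log2 fold change of dE2 minus FL (horizontal) of each gene with its 95% interval, from the model with group only (filled) and with the replicate number as a block (open). The interval of Cd80 runs from -0.80 to 1.57 without the block and from 0.14 to 0.62 with it, while the estimates stay at 0.38.

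Leaving out dE2 replicate 2 left Cd83 as the only called member, and across all genes the higher calls then numbered 125, against 548 with all libraries. Without FL replicate 1 the called members were 3, beside 249 higher calls over all genes, and without dE2 replicate 1 they were 5, beside 780. Without dE2 replicate 3, FL replicate 2 or FL replicate 3 they were 4 each time, beside 542, 266 and 360. The number of called members and the number over all genes thus both depended on which library was left out.

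**Figure D4:**
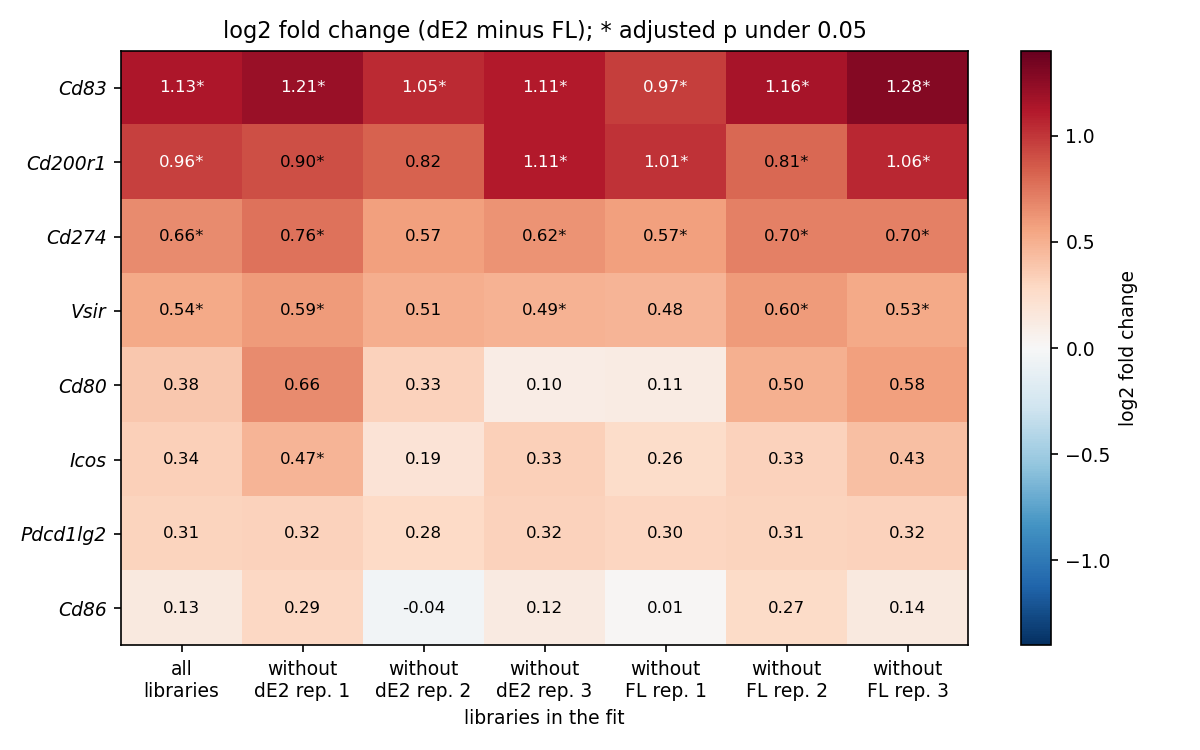
log2 fold change of dE2 minus FL for the 8 genes (rows) with all libraries and with each library left out (columns), coloured by its value, with a star where the adjusted p is under 0.05. Cd83 keeps its star in every column, and Cd86 is the only gene with a value below 0 (-0.04 without dE2 replicate 2).

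Receptors and ligands that meet these proteins were read from a list of 8 names, of which 7 were measured and Igsf11 matched no row. Of the 7, 2 rose, 0 fell and 5 did not pass, with a list median log2 fold change of 0.02. Pdcd1, the gene of PD-1, which binds both PD-L1 and PD-L2, had 477, 593 and 534 CPM in dE2, against 267, 252 and 307 CPM in FL (log2 fold change 0.96 ± 0.13, edgeR adjusted p = 0.000153). Cd200, the ligand of the CD200 receptor, had 246, 351 and 313 CPM in dE2, against 92.6, 128 and 141 CPM in FL (1.33 ± 0.16, adjusted p = 0.000199). In both genes all dE2 libraries lay above all FL libraries, and both calls held in each of 6 fits with 1 library left out. So the receptor Pdcd1 and its ligand Cd274 were both higher in dE2, as were Cd200 and its receptor Cd200r1.

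The receptors of Cd80 and Cd86 did not pass. Cd28, the activating receptor, had 658, 1068 and 880 CPM in dE2 and 645, 712 and 840 CPM in FL (log2 fold change 0.25 ± 0.16, edgeR adjusted p = 0.392). Ctla4, the inhibitory receptor, had 384, 597 and 586 CPM in dE2 and 462, 574 and 615 CPM in FL (-0.08 ± 0.16, adjusted p = 0.836). For both, replicate 1 was lowest in each group. Icosl, the ligand of ICOS, was low at 6.42, 4.49 and 3.38 CPM in dE2 and 6.59, 2.44 and 7.22 CPM in FL (-0.17 ± 0.41, adjusted p = 0.857). Rgmb, which binds PD-L2, had 4.48, 2.79 and 1.31 CPM in dE2 and 7.73, 4.16 and 4.67 CPM in FL. At a log2 fold change of -0.94 ± 0.40 it did not pass (edgeR adjusted p = 0.204), but did with the replicate block (-0.99 ± 0.22, adjusted p = 0.000187) and without dE2 replicate 1 (-1.44, adjusted p = 0.0146). Selplg, the gene of PSGL-1, which can bind VISTA, had 740, 620 and 655 CPM in dE2 and 663, 629 and 699 CPM in FL (0.02 ± 0.13, adjusted p = 0.955).

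**Figure D5:**
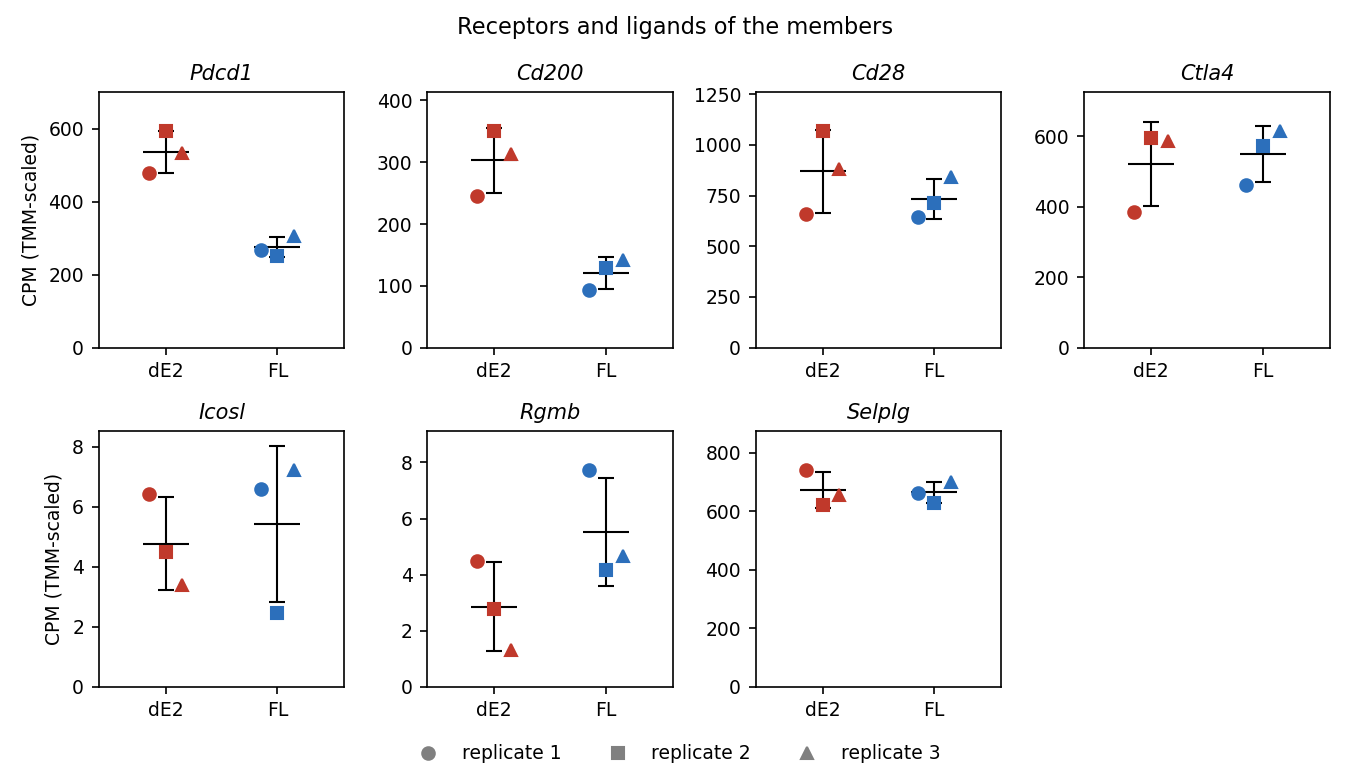
TMM-scaled CPM (vertical axes, from 0) of 7 receptor and ligand genes in dE2 (left, red) and FL (right, blue), with a symbol for each replicate number and the mean and SD of 3 libraries in black. The dE2 values of Pdcd1 and Cd200 lie above all FL values, and the other genes overlap.

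Of 9 names, which were further B7 and butyrophilin family genes and the receptor gene Btla from outside these families, 2 were measured. Btla, an inhibitory receptor of the same immunoglobulin superfamily, rose with 124, 193 and 166 CPM in dE2 against 74.9, 85.3 and 94.6 CPM in FL (log2 fold change 0.92 ± 0.15, edgeR adjusted p = 0.00134), and Icosl is described above. The list median over these 2 genes was 0.37, with the B7 ligand gene Icosl at -0.17.

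Downstream of these receptors, 0 of 19 CD28 and ICOS signalling genes rose, 1 fell and 18 did not pass, with a list median log2 fold change of -0.15. Pik3r1, a regulatory subunit of the phosphoinositide 3-kinase that CD28 and ICOS recruit, had 83.9, 73.3 and 72.3 CPM in dE2, against 128, 97.1 and 100.5 CPM in FL (-0.51 ± 0.13, edgeR adjusted p = 0.0218). It no longer passed without dE2 replicate 2 (adjusted p = 0.132), dE2 replicate 3 (0.0548) or FL replicate 1 (0.167). With the replicate block 7 genes of this list fell and 1 rose, where the block raised the share called lower over all tested genes to 10.1% (1471 genes). Those that then fell included the kinase gene Akt1 (-0.40 ± 0.10, adjusted p = 0.000745), the adaptor gene Grb2 (-0.43 ± 0.11, adjusted p = 0.000966) and Prkcq, the protein kinase C form that links CD28 to NF-kB (-0.37 ± 0.10, adjusted p = 0.00172). Without dE2 replicate 1, 5 fell and 1 rose, beside 587 and 780 over all genes.

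Of 6 genes that carry the PD-1 and CD200 receptor signals, 0 rose and 0 fell (list median 0.03). They included the phosphatase genes Ptpn11 (-0.15 ± 0.12, edgeR adjusted p = 0.494) and Ptpn6 (0.04 ± 0.12, 0.877), and the adaptor gene Dok2 (0.09 ± 0.11, 0.675). With the block Rasa1 fell (-0.30 ± 0.10, adjusted p = 0.0148). Of 10 names for genes that move or tag the B7 and CD83 proteins 7 were measured, and 0 passed in either direction with or without the block (list median -0.11). Among these Cmtm6, which keeps PD-L1 at the cell surface, had 324, 355 and 314 CPM in dE2 and 314, 316 and 318 CPM in FL (0.07 ± 0.12, edgeR adjusted p = 0.787).

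Of 6 genes of messenger RNA decay factors, some of which act on the Icos message, 0 rose and 1 fell (list median -0.19). Zfp36l2 had 24.8, 21.8 and 23.6 CPM in dE2, against 38.0, 34.0 and 31.2 CPM in FL (-0.56 ± 0.13, edgeR adjusted p = 0.0121), and lost its call without dE2 replicate 2 (0.0788) or FL replicate 1 (0.0844). The Roquin gene Rc3h1, which represses Icos, did not pass at -0.01 ± 0.11 (adjusted p = 0.978). With the block Zc3h12a, the gene of Regnase-1, also fell (-0.58 ± 0.22, adjusted p = 0.046), at 2.74, 2.09 and 3.86 CPM in dE2 and 4.57, 3.69 and 4.601 CPM in FL.

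Of 12 genes known as inducers of the PD-1 ligands, 0 rose and 0 fell (list median 0.02). Irf1, through which interferon gamma induces Cd274, had 422, 467 and 382 CPM in dE2 and 429, 469 and 388 CPM in FL (log2 fold change -0.02 ± 0.13, edgeR adjusted p = 0.96). With the block 3 of this list rose, namely the interferon gamma receptor gene Ifngr1 (0.32 ± 0.10, adjusted p = 0.0107), the interleukin 4 receptor gene Il4ra (0.36 ± 0.10, adjusted p = 0.00381) and Stat6 (0.28 ± 0.10, adjusted p = 0.0225). Without dE2 replicate 1, 1 of the list rose.

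For each called member the 2 genes with the most similar profile were taken by the root mean square difference of log2 CPM over 6 libraries, each gene centred on its own mean, among 9180 genes. These genes were picked for a profile like that of a called gene, so their fold changes follow from the choice and are given with no test. Near to Cd274 was Tmem39a (difference 0.0324), with a log2 fold change of 0.63 ± 0.13. Nearest to Cd83 were Cst7, the gene of cystatin F (difference 0.101, log2 fold change 1.04 ± 0.15), and the phospholipid transporter gene Atp8b4 (difference 0.105, log2 fold change 1.07 ± 0.24). Nearest to Vsir were Surf2 (difference 0.0541, log2 fold change 0.43 ± 0.12) and Cyb5rl (difference 0.059, log2 fold change 0.47 ± 0.18). The profiles nearest to Cd200r1 were farther off and belonged to the TNF receptor family gene Tnfrsf26 (difference 0.135, log2 fold change 0.89 ± 0.15) and to Tnfsf4, the gene of OX40 ligand (difference 0.168, log2 fold change 1.08 ± 0.14).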

How the data were processed

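Polyadenylated RNA of 6 libraries was extracted and sequenced by a company, per the labels' protocols. The tools named in the submitters' processing notes are STAR 2.5, bcl2fastq, edgeR 3.20.8 and featureCounts from Subread 1.5.1, on mm10, with no settings. For each gene the authors deposited whole-number counts in 6 libraries, log2 CPM values (not used in tests), and the log2 fold change and p-value of their own comparison, per the file headers, with mapping statistics in reads and percentages. Coding reads there were 48.4% to 49.8% sense, so strand cannot be resolved. The counted exon lengths are the deposited ones.

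In R 4.3.3, filterByExpr left out 145 of 14777 genes. TMM scaling was followed by edgeR 4.0.16's two-sided quasi-likelihood test (glmQLFit, robust, with group alone in the model), and Benjamini-Hochberg adjustment covered 14632 genes at a threshold of 0.05. A positive fold change means higher in dE2. The SE is the log2 fold change over the square root of F. The fit was tested on simulated data. Alternatives were the replicate block, DESeq2 1.42.0 and its size factors, no composition factor, limma-voom (limma 3.58.1), the likelihood ratio test, 2 other filters and each library left out. Within groups no 2 libraries agreed within sampling noise.

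The replicate numbers in the titles were taken to pair the libraries, since deviations from the group means correlated at 0.392, 0.207 and 0.185 for the same numbers, each over 0.1. For different numbers the correlations ran from -0.287 to 0.0972. Deviations within a group cancel, so these correlations depend on each other and do not test the pairing. What such a number stands for is not given in the labels. The permutation test over pairs was chosen after seeing the data. The members, lists and motifs were chosen with earlier results of these data known. The named genes are the members, their receptors and ligands, up to 4 or 6 called genes of each list, and the 2 genes nearest in profile to each called member (mean CPM of at least 5). List genes named beside these, chiefly those that did not pass or passed with the block, were chosen after their values were seen. A few genes that these rules would name are not reported here.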

Additional observations from a re-analysis of the deposited data

How the results depend on the processing

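All 4 called members stayed higher and called with DESeq2 size factors, the DESeq2 Wald test, limma-voom, the likelihood ratio test, no composition factor, no filter and CPM of at least 5 in 3 libraries, and with the replicate block, which called 6 members. With 1 library left out 1 to 5 members were called higher and 0 lower. Without the composition factor the median gene moved by -0.14 on the log2 scale, the Cd86 log2 fold change was -0.0032 and that of Selplg -0.12, and the calls over all genes became 264 higher and 954 lower, against 548 and 355. The block gave 1678 and 1471, limma-voom 227 lower, and leaving out 1 library 125 to 780 higher and 51 to 587 lower. With the block 1 receptor or ligand gene fell, as did 7 CD28 and ICOS signalling genes (1 rose), 1 PD-1 and CD200 receptor signalling gene and 2 decay factor genes, and 3 inducer genes rose. With 1 library left out, 0 to 1 CD200 receptor family genes rose, 0 to 1 receptor or ligand genes fell, 0 to 1 signalling genes of CD28 and ICOS rose and 0 to 5 fell, 0 to 1 decay factor genes fell and 0 to 1 inducer genes rose. Uncalled log2 fold changes that changed sign in those fits were those of Cd86 (-0.036 to 0.29), Ctla4 (-0.19 to 0.10), Icosl (-0.53 to 0.092), Selplg (-0.058 to 0.069) and Foxp3 (-0.11 to 0.094). The cause of these moves was not tested. With 79 to 184 counts per library, Cd200r1 is the member most limited by depth.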

Other observations

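Replicate 1 was the lowest library of its group, in both groups, for 6 of the 8 members (Cd80, Cd86, Cd274, Icos, Cd83 and Vsir), against 17.3% of the 14632 tested genes. The other 2, Pdcd1lg2 and Cd200r1, did not show this order. Within same-numbered libraries dE2 was above FL in 3 of 3 for each of the 8 members. The share of all tested genes with this order was not computed. It is at least the 13.6% whose groups did not overlap with dE2 higher. The members were chosen with earlier results known, so this order only describes them. On the log2 scale the difference in replicates 1, 2 and 3 was 1.33, 1.22 and 0.88 for Cd83, 0.61, 0.73 and 0.63 for Cd274, 0.54, 0.46 and 0.61 for Vsir, and 0.29, 0.37 and 0.26 for Pdcd1lg2. It varied more for Icos (0.19, 0.61 and 0.17) and for Cd200r1 (0.93, 1.501 and 0.36), and was small for Cd86 (0.03, 0.20 and 0.15).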
